A study of Mus musculus with 6 samples.

Results

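The genes described here were the mouse box H/ACA small nucleolar RNAs and small Cajal body RNAs that carry a name of their own. They were chosen as the genes whose GENCODE M21 symbol starts with Snora or Scarna and whose biotype is snoRNA or scaRNA, without use of any measured value. This gave 51 of the 47729 genes in the count files, 42 named Snora and 9 named Scarna, and 27 of the 51 had a count in any sample. RNA came from extracellular vesicles (EVs) of WEHI-231, a mouse splenic B cell lymphoma line, so all samples derived from 1 cell line. Cells were treated for 1 h with M1/69, a rat antibody to CD24, or with its isotype control, each at 10 µg/mL and with 5 µg/mL of an anti-rat secondary antibody (donkey in the labels, goat in the study's methods), and each condition had 3 samples. EVs were captured with the Vn96 peptide, and their RNA was read on an IonTorrent PGM without fragmentation or removal of ribosomal RNA (rRNA). Barcode 1 marked all isotype libraries and barcode 2 all anti-CD24 libraries, so barcode and condition cannot be told apart.

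Box H/ACA snoRNAs fold into hairpins that pair with a target RNA and direct the conversion of a chosen uridine to pseudouridine. Each is bound by the pseudouridine synthase dyskerin (Dkc1) with Gar1, Nhp2 and Nop10, and in mammals most are cut out of the introns of host genes. Snora RNAs act mainly on rRNA in the nucleolus, whereas scaRNAs reside in Cajal bodies and act on spliceosomal snRNAs. Some scaRNAs belong to the box C/D family, which guides 2′-O-methylation, or join both kinds of guide in 1 molecule. The name H/ACA refers to the letters ANANNA in the hinge between the hairpins (box H) and ACA close to the 3′ end.

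The 4 Snora genes with the highest totals show this layout. Their transcripts, from GENCODE M21 on GRCm38, are printed 5′ to 3′ with the ANANNA nearest the middle and the ACA nearest the 3′ end in capitals. Snora23 ends in ACACAA, so another ACA, left in lower case, overlaps the marked one.
Snora68: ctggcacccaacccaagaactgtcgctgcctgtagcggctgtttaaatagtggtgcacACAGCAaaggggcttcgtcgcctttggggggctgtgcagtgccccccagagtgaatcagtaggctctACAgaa
Snora21: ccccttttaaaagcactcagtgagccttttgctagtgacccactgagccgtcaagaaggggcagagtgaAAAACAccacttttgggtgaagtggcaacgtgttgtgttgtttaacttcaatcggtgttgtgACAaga
Snora23: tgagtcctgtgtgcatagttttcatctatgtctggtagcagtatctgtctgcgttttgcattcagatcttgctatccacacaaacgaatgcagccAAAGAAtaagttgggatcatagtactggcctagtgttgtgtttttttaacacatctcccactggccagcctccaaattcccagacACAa
Snora57: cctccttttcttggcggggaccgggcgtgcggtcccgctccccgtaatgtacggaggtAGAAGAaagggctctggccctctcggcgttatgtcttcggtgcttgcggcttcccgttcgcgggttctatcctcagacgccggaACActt
Snora68 (ENSMUSG00000077563) lies at chr8:70895759-70895889 on the minus strand. Snora21 (ENSMUSG00000064901) lies in an intron of Rpl23 at chr11:97781639-97781775 on the minus strand. Snora23 (ENSMUSG00000064451) lies in an intron of Ipo7, a nuclear import receptor, at chr7:110046364-110046547 on the plus strand. Snora57 (ENSMUSG00000070167) is at chr19:8888538-8888685 on the minus strand and lies in no same-strand host gene of this annotation.

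Scarna6 (ENSMUSG00000089281), the scaRNA with the highest total, is shown because its ends differ from these. It lies in an intron of Atg16l1, an autophagy gene, at chr1:87784556-87784820 on the plus strand, and the capitals mark TGATGA and CTGA, the letters of boxes C and D.
Scarna6: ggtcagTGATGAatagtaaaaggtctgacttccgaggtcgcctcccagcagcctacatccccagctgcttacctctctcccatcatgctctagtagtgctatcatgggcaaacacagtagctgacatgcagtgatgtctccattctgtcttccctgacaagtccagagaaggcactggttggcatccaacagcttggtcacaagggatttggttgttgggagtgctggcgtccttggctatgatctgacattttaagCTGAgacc

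The letters were searched on the sense strand in all 51 transcripts. An ACA starting 3 to 6 bases before the 3′ end was present in 43 of the 51 (84.3%), against 5 of 98 named box C/D genes (Snord; 5.10%) and 46.5% of all 1558 snoRNA and scaRNA genes. Both this ACA and an ANANNA in the middle of the transcript, with its length divided into 3 equal parts, were found in 39 of the 51 (76.5%), in no named box C/D gene and in 39.7% of all snoRNA and scaRNA genes. The label was therefore borne out by sequence for the Snora genes, of which 39 of 42 carried the ACA, and less so for the Scarna genes, of which 4 of 9 did. TGATGA in the first 20 bases with CTGA in the last 20 was found in Scarna6, Scarna9, Scarna10 and Scarna17, that is in 4 of the 51, against 69.4% of the named box C/D genes and 20.2% of all snoRNA and scaRNA genes. TGAG, the letters of the Cajal body box, occurred in 8 of 9 Scarna and 19 of 42 Snora transcripts, and in 51.7% of all snoRNA and scaRNA genes. It overlaps the TGA of the C and D letters, and 83.7% of the named box C/D genes held it. A match of so few letters is a description and not a site. The 51 transcripts were 70 to 414 bases long with a median of 133, and 49 of them had 120 bases or more, whereas the median of the named box C/D genes was 84 bases.

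Each sample had between 166129 and 794185 counts on genes, of which 15626 to 112042 lay outside the rRNA and ribozyme genes (non-rRNA counts). A total of 3 counts, taken as the smallest that can show a gene, corresponded to 0.00268% to 0.0192% of the non-rRNA counts of a sample. Of the B cell marker list, 8 of 10 genes had counts, with 0 to 20 counts per sample in sum and none on Ptprc. The 4 globin genes held 99 counts in anti-CD24 replicate 1, which is 0.153% of its non-rRNA counts, and 0 in the other 5 samples, and Alas2 was at 0 in every sample. The T cell list had 0 counts, and the myeloid list had 4 in each of anti-CD24 replicates 1 and 2 and 0 elsewhere. The study calls the samples biological replicates, but the labels do not say that they came from separate cultures, so p-values measure the spread between these samples, which may be technical.

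With any count as the limit, named H/ACA genes were seen about as often as named box C/D genes. They had far fewer reads and were seen less often at stricter limits. A count was present for 27 of the 51 (52.9%), for 48 of 98 named box C/D genes (49.0%), for 123 of 1409 other snoRNA and scaRNA genes (8.73%) and for 9700 of all 47729 genes (20.3%). All 9 Scarna genes had a count, compared with 18 of 42 Snora genes, and the 24 genes at 0 in every sample were all Snora. In sum the 51 genes had 1272 counts and the named box C/D genes 19807. Every sample held a count for 6 of the 51, 16 had one in at least 3 samples, and 14 reached 10 counts over all samples. For the 98 named box C/D genes these numbers were 32, 44 and 46. Per sample, 12, 6 and 16 of the genes had a count in isotype replicates 1, 2 and 3, and 24, 19 and 12 in anti-CD24 replicates 1, 2 and 3. Anti-CD24 replicate 1 had the most, and without it 22 genes kept a count.

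**Figure D1:**
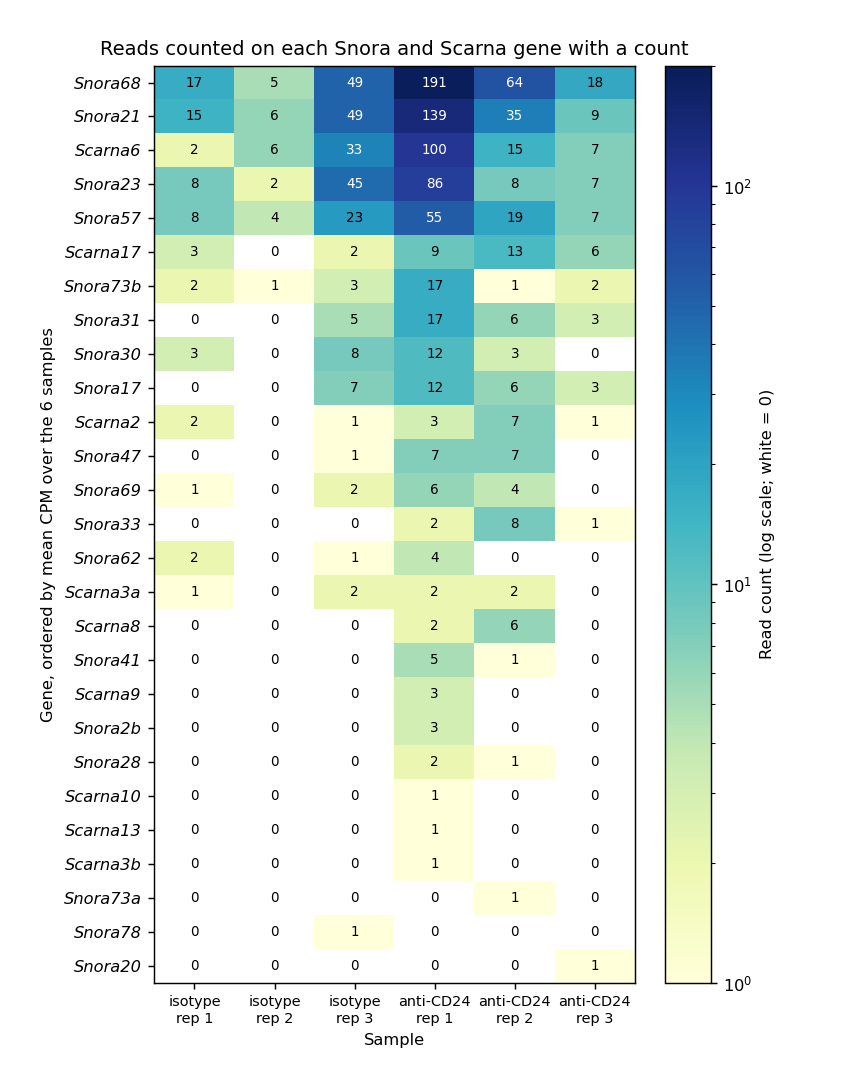
Read counts (colour on a log scale, white for 0) of the 27 Snora and Scarna genes with a count, in rows ordered by mean CPM, in the 3 isotype and 3 anti-CD24 samples in columns. The first 5 rows hold most of the counts, and anti-CD24 replicate 1 has the highest count of each, up to 191 for Snora68.

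The counts were concentrated on few genes. Snora68, Snora21, Scarna6, Snora23 and Snora57 held 1032 of the 1272 counts (81.1%), and between 68.1% and 95.8% in single samples. Per kilobase of transcript, the mean level over the 6 samples was 725 counts scaled to the library total of counts on genes (CPM) for Snora68, 527 for Snora21, 232 for Snora23, 229 for Snora57, 175 for Scarna6 and 109 for Scarna17. The next gene, Snora31, was at 59.4 CPM per kilobase.

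Snora68 and Snora21 had the highest levels. Snora68 had 17, 5 and 49 counts in isotype replicates 1, 2 and 3 and 191, 64 and 18 in the anti-CD24 replicates. In CPM these were 52.7, 30.1 and 64.2 against 313, 86.9 and 22.7. The highest and the lowest sample were both anti-CD24 samples, replicates 1 and 3, so the groups overlapped. Snora21 had 15, 6 and 49 counts in the isotype samples and 139, 35 and 9 in the anti-CD24 samples, which is 46.5, 36.1 and 64.2 CPM against 228, 47.5 and 11.3 CPM. Again anti-CD24 replicate 1 was highest and replicate 3 lowest.

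Snora23 and Snora57 had the same extremes. Snora23 had 8, 2 and 45 counts in the isotype samples and 86, 8 and 7 in the anti-CD24 samples, which is 24.8, 12.0 and 58.9 CPM against 141, 10.9 and 8.81 CPM. Here anti-CD24 replicates 2 and 3 lay below all isotype samples and replicate 1 above them. Snora57 had 8, 4 and 23 counts in the isotype samples and 55, 19 and 7 in the anti-CD24 samples, which is 24.8, 24.1 and 30.1 CPM against 90.1, 25.8 and 8.81 CPM. Its isotype values lay close together, at 26.3 ± 3.29 CPM (SD, n = 3), while those after anti-CD24 spread to 41.6 ± 42.9 CPM (SD, n = 3). A single count in isotype replicate 2 was worth 6.02 CPM, more than that isotype SD, so the closeness is within counting error.

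Among the scaRNAs, Scarna6 had 2, 6 and 33 counts in the isotype samples and 100, 15 and 7 in the anti-CD24 samples, which is 6.20, 36.1 and 43.2 CPM against 164, 20.4 and 8.81 CPM. Its lowest sample was isotype replicate 1, and the groups overlapped. Scarna17, a short scaRNA of 79 bases with C and D letters, had 3, 0 and 2 counts in the isotype samples and 9, 13 and 6 in the anti-CD24 samples. Its mean was 3.97 ± 4.80 CPM (SD, n = 3) for isotype and 13.3 ± 5.20 CPM (SD, n = 3) for anti-CD24, and the highest isotype sample (9.31 CPM) lay above the lowest anti-CD24 sample (7.55 CPM). Scarna2, a box C/D scaRNA and the longest of the 51 at 414 bases, had 2, 0 and 1 counts against 3, 7 and 1. Scarna3a had 1, 0 and 2 against 2, 2 and 0, and Scarna8 had none in isotype and 2, 6 and 0 after anti-CD24. The other 4 scaRNAs were seen in anti-CD24 replicate 1 only, Scarna9 with 3 counts and Scarna3b, Scarna10 and Scarna13 with 1 each, and they were at 0 without that sample.

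The remaining Snora genes were near the limit of detection. Snora31, in an intron of Tpt1, had 0, 0 and 5 counts in the isotype samples and 17, 6 and 3 in the anti-CD24 samples. Snora17 had 0, 0 and 7 against 12, 6 and 3, and Snora30, in an intron of Srcap, had 3, 0 and 8 against 12, 3 and 0. Isotype replicate 2, the shallowest library, was at 0 for each of these. Snora47 had 0, 0 and 1 against 7, 7 and 0, Snora69 had 1, 0 and 2 against 6, 4 and 0, and Snora62 had 2, 0 and 1 against 4, 0 and 0. Snora41 had 5 counts in anti-CD24 replicate 1 and 1 in replicate 2, and Snora2b had 3 counts in anti-CD24 replicate 1. Of the rest with a count, Snora28 had 3 in all, and Snora20, Snora73a and Snora78 had 1 each.

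The Snora73 pair, also known as U17, takes part in cleavage of the rRNA precursor and not in pseudouridylation. Both copies are shown because they are 98.0% identical and yet received different counts, with capitals as above.
Snora73b: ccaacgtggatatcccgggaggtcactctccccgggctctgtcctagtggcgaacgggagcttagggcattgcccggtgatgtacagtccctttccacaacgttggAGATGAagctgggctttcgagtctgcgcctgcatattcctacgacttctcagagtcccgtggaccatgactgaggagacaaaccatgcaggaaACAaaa
Snora73a: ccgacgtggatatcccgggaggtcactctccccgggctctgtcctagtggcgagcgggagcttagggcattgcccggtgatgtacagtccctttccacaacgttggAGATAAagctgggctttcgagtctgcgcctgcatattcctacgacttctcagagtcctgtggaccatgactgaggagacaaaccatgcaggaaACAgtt
Snora73b (chr4:132352322-132352526, minus strand) had 2, 1 and 3 counts in the isotype samples and 17, 1 and 2 in the anti-CD24 samples, 26 in all. Snora73a (chr4:132352775-132352979, minus strand) had 1 count, in anti-CD24 replicate 2. In GENCODE M21, 159 of the 205 bases of Snora73a and none of Snora73b lie on an exon of Snhg3. How the aligner placed reads that fit both copies cannot be seen from the counts, so the split between them is uncertain.

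Taken as a family, the 51 genes did not differ between the conditions by more than the spread of the samples. Of the non-rRNA counts they made up 0.230%, 0.154% and 0.336% in isotype replicates 1, 2 and 3 and 1.05%, 0.185% and 0.0798% in the anti-CD24 replicates. The 95% Wilson intervals, which cover counting error only, were 0.976% to 1.13% for anti-CD24 replicate 1 and 0.0626% to 0.102% for anti-CD24 replicate 3, so the highest and the lowest share both came from anti-CD24 samples. The means were 0.240% ± 0.0919 (SD, n = 3) for isotype and 0.439% ± 0.534 (SD, n = 3) for anti-CD24. By the run identifiers of the deposited counts, though not by the labels, libraries of 1 replicate number were read on 1 run. Within these pairs the anti-CD24 share minus the isotype share was 0.822, 0.0312 and -0.257 percentage points. Without anti-CD24 replicate 1 the anti-CD24 mean was 0.132% and the difference turned to -0.108 percentage points. That sample also held all the globin counts and the largest number of ambiguous reads relative to its non-rRNA counts (33.8%, against 11.4% to 18.7% elsewhere), and the part of either in the result was not tested. In bulk RNA, fewer EVs carrying these RNAs and less of them per EV cannot be told apart.

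**Figure D2:**
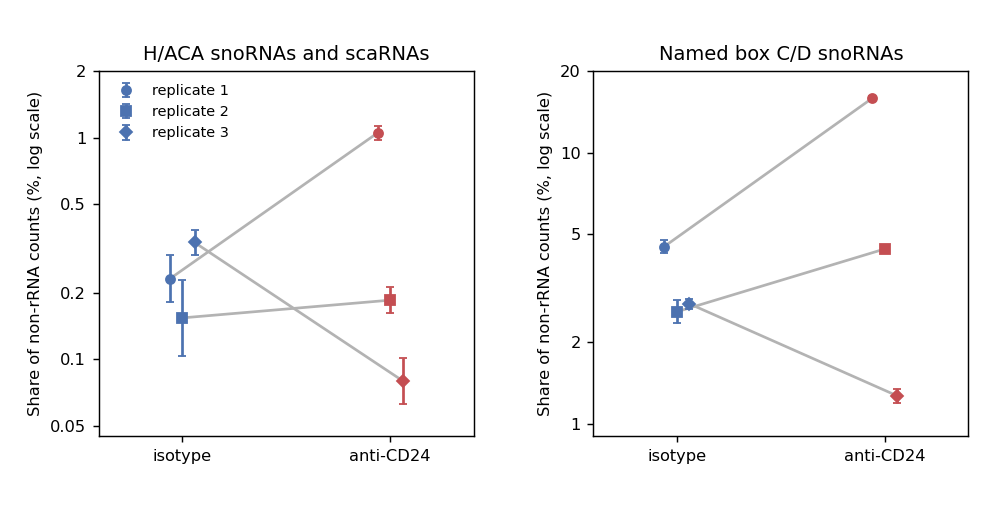
Share of the non-rRNA counts (%, log scale) held by the 51 Snora and Scarna genes (left) and by the named box C/D genes (right) in each sample, with 95% Wilson intervals and grey lines joining samples of 1 replicate number. In both panels the share is highest in anti-CD24 replicate 1 and lowest in anti-CD24 replicate 3.

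The named box C/D genes moved in the same samples. As a share of non-rRNA counts they held 4.50%, 2.59% and 2.77% in the isotype libraries and 15.9%, 4.41% and 1.26% in the anti-CD24 libraries. Relative to the sum of both families, the 51 genes took 4.87%, 5.61% and 10.8% in the isotype samples and 6.21%, 4.02% and 5.94% in the anti-CD24 samples. On this scale anti-CD24 replicate 1 lay among the other samples, isotype replicate 3 was highest, and the means were 7.10% ± 3.25 (SD, n = 3) and 5.39% ± 1.19 (SD, n = 3). Isotype replicate 3 was also highest in the part of the box C/D counts that fell on the 5 box C/D genes of 120 bases or more, at 40.3%, where the means were 25.5% ± 13.8 (SD, n = 3) for isotype and 9.52% ± 4.44 (SD, n = 3) for anti-CD24. This measure was chosen after its values were seen, and Snord17 alone held 35.7% of the box C/D counts in that sample. Whether RNA length had a part in the H/ACA share of isotype replicate 3 was not tested.

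**Figure D3:**
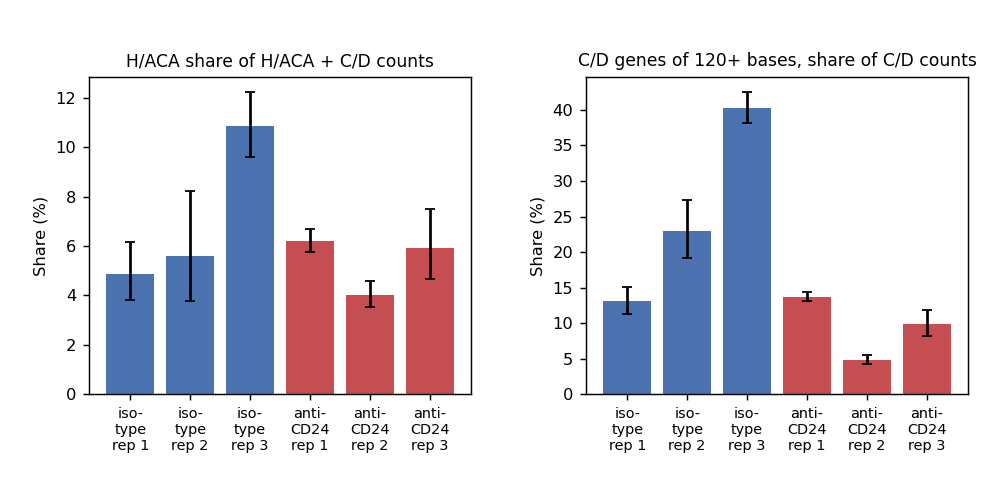
Left, counts on the 51 Snora and Scarna genes as a share (%) of their sum with the named box C/D counts; right, counts on the 5 named box C/D genes of 120 bases or more as a share (%) of all named box C/D counts. Bars are single samples with 95% Wilson intervals, and isotype replicate 3 is highest in both, at 10.8% and 40.3%.

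Within the family, Snora68 took 26.6%, 20.8% and 21.1% of the H/ACA counts in the isotype samples and 28.1%, 30.9% and 27.7% in the anti-CD24 samples. Snora21 took 23.4%, 25.0% and 21.1% in the isotype samples and 20.4%, 16.9% and 13.8% in the anti-CD24 samples. The sample values of the groups did not overlap for these genes and overlapped for Scarna6, Snora23 and Snora57. The 95% Wilson intervals did overlap, at 17.3% to 38.5% in isotype replicate 1 and 18.3% to 39.6% in anti-CD24 replicate 3 for Snora68. In CPM, where both genes overlapped between the groups, 5.73% of all genes tested were higher and 6.53% lower in every anti-CD24 sample than in every isotype sample. No such background was made for shares of the family total. These shares of 1 total rest on as few as 24 counts in a sample and are given with no test.

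Each gene was compared between 3 anti-CD24 and 3 isotype samples with edgeR's quasi-likelihood test over the 1501 genes with at least 1 CPM in 3 or more samples, 16 of the 51 among them. None of the 16 passed an adjusted p of 0.05, where 0.0666% of all genes tested did, and 1 of the 16 had an unadjusted p under 0.05, where 120 of the 1501 genes (7.99%) did. With DESeq2 the number past the threshold was 0 and the number at an unadjusted p under 0.05 was also 0. The lowest Benjamini-Hochberg adjusted p of the 16 in the quasi-likelihood test was 0.54. The fitted log2 fold change of anti-CD24 over isotype was above 0 for 13 of the 16 and below 0 for 3, with a median of 1.01, whereas 44.7% of all genes tested were above 0 with a median of -0.29. Of the named box C/D genes, 44 of 44 tested were above 0 with a median of 1.86, and none of them passed the threshold in this test, with 19 at an unadjusted p under 0.05. The filter admits a gene through the group where it is high, so the 16 do not stand for all 51.

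Snora68 had a log2 fold change of 1.43 (standard error 0.86, adjusted p = 0.54 in the quasi-likelihood test). For Snora21 it was 0.87 (standard error 0.88), for Scarna6 1.12 (standard error 0.95), for Snora23 0.58 (standard error 0.95) and for Snora57 0.64 (standard error 0.99), with adjusted p of 0.64 to 0.81 in the same edgeR test. Each of these values was lower without anti-CD24 replicate 1. With that sample left out, 13 of the 51 genes were tested, and the log2 fold change was 0.50 for Snora68, -0.39 for Snora21, -0.56 for Scarna6, -1.34 for Snora23 and -0.18 for Snora57. The median of the 13 was then -0.18, none passed the threshold in edgeR, and none had an unadjusted p under 0.05. Of all 1119 genes then tested, 48 passed, 47 of them with anti-CD24 higher. An unadjusted p under 0.05 in edgeR was found for 163 of the 1119. Scarna17 had a log2 fold change of 1.71 (standard error 1.29, adjusted p = 0.59 in edgeR) with all samples, and values of 1.03 without isotype replicate 2 to 2.74 without isotype replicate 1.

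**Figure D4:**
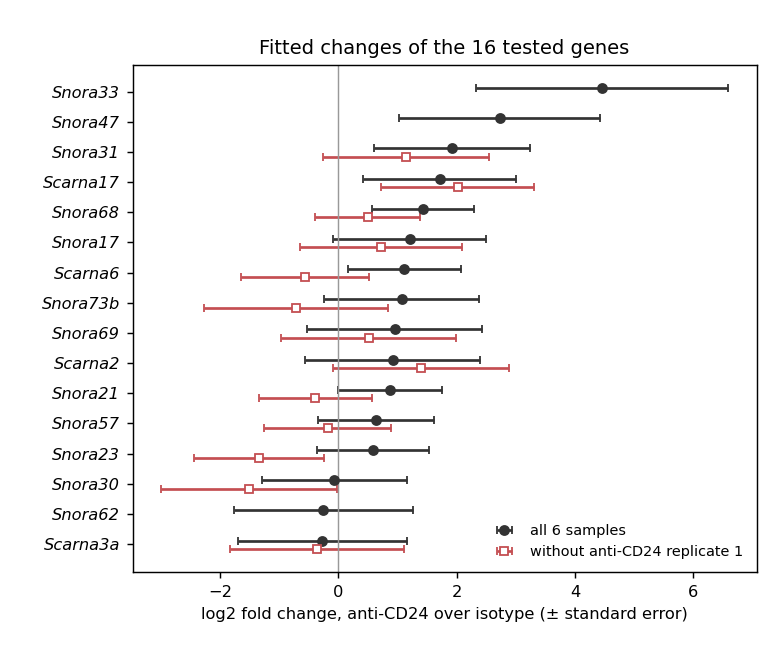
Fitted log2 fold change of anti-CD24 over isotype with its standard error for the 16 tested genes, from all 6 samples (black circles) and without anti-CD24 replicate 1 (red squares, 13 genes). Snora21, Scarna6, Snora23, Snora57 and Snora73b move from above 0 to below 0, and the value for Snora33, which had no isotype count, depends on the prior count and is no bound.

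The smallest unadjusted p of the 16 belonged to Snora33 (ENSMUSG00000070063; chr10:23785347-23785475, minus strand), which lies within Rps12. It had 0, 0 and 0 counts in the isotype samples and 2, 8 and 1 in the anti-CD24 samples. It was the only one of the 16 whose groups did not overlap in CPM with anti-CD24 higher, where 5.73% of all genes tested were of that kind. With no isotype count, Snora33 could pass the CPM filter only with a count in every anti-CD24 sample. Its lack of overlap was therefore fixed by the filter and is no support for a change. None of the 16 was lower without overlap, where 6.53% of all genes were. Against 3 counts over the isotype group, the pooled level of Snora33 was 2.14-fold higher. This takes its anti-CD24 counts as exact and leaves out the spread between samples, so it is not a lower bound. The median log2 fold change of the 16 was 1.01 with Snora33 set to that value. It could not have moved, since the value stayed above the middle of the 16. For Snora33 the test gave an unadjusted p of 0.037 and an adjusted p of 0.54 (edgeR). The isotype libraries had fewer counts in sum, and in isotype replicate 2 a single count was worth 6.02 CPM. Snora33 failed the CPM filter when any 1 of the anti-CD24 samples was left out.

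Snora68 and Snora47 followed in the order of unadjusted p. Snora47 had 1 isotype and 14 anti-CD24 counts, a pooled ratio of 8.19 with a counting interval of 1.25 to 346. The fit gave it 2.73 on the log2 scale (standard error 1.70, adjusted p = 0.54 in edgeR). The 3 genes below 0 were Snora30 at -0.07, Snora62 at -0.26 and Scarna3a at -0.27, with standard errors of 1.23 to 1.51. Over the 16 genes the median standard error was 1.30 on the log2 scale.

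Whether a gene had a count went along with its position on other genes' exons. In union mode a read that touches exons of more than 1 gene on its strand is set aside as ambiguous and counted on none. Of the 19 genes with no base on a same-strand exon of another gene in GENCODE M21, 18 had a count, the exception being Snora35 in an intron of Htr2c. Of the 32 with such a base, 9 had a count and 23 were at 0. At 50% or more of the bases on such an exon, 6 of 27 genes had a count. The named box C/D genes fell the same way, with 40 of 57 counted where there was no overlap and 8 of 41 where there was. The other snoRNA and scaRNA genes did not, with 107 of 1255 counted where there was no overlap and 16 of 154 where there was. A count of 0 on an overlapped gene therefore does not show that its RNA was not in the EVs.

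**Figure D5:**
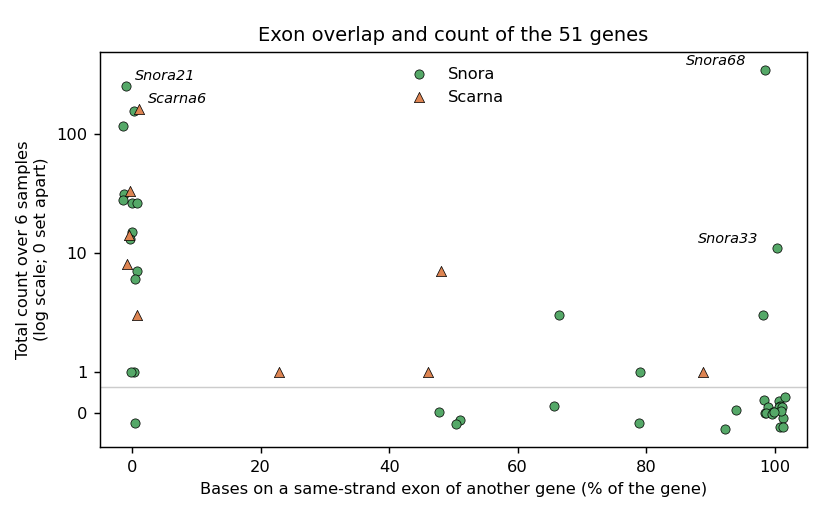
Total count over the 6 samples (log scale, 0 set apart below the line) against the percentage of the bases of each gene on a same-strand exon of another gene, for all 51 Snora (circles) and Scarna (triangles) genes, with points moved slightly sideways, and up or down at 0, to part them. Of the 24 genes at 0, 23 have some overlap, while Snora68 (344 counts) and Snora33 (11 counts) are fully overlapped and were counted.

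Snora68 and Snora33 went against this, being covered in full by exons of other genes in M21 and having 344 and 11 counts. The other 4 counted genes with at least 50% of their bases on such exons were Snora2b and Snora28 with 3 counts each and Scarna10 and Snora73a with 1 each. Snora28 was also covered in full. Under the counting described, a gene covered in full can have no count, so the exons used there were not those of M21. The split by M21 overlap is thus approximate. The deposited counts used Ensembl genes of GRCm38.p5 per the methods and GRCm38.p4 per the processing notes, with no Ensembl release number. How far their exons differ from those of M21 at other genes cannot be seen. Restricted to the 19 genes with no overlap, the family's mean share of the non-rRNA counts was 0.183% for isotype and 0.304% for anti-CD24. Snora21, Scarna6, Snora23 and Snora57 are among these 19, and each was highest in anti-CD24 replicate 1. Snora16a and Snora43 are each annotated as a pair of genes at nearly the same place, which overlap each other, and all 4 were at 0.

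Near-identical copies were a further limit for single genes. Snora21 had 253 counts and its copy Gm23795, 97.8% identical, had 0. Snora68 and Snora57 likewise held nearly all counts, with 0 on Gm22661 and 2 on Gm26132. For Snora65, in Rpl12, the order was the other way, with 0 counts on the named gene and 9 on each of Gm26440 and Gm24613, both 98.5% identical to it. Snora70 had 0 counts against 99 on Gm26165 (90.7% identical), and Snora26 had 0 against 19 on Gm24233 (90.8% identical). Snora5c and Snora81 had 0 against 3 each on Gm23346 and Gm22519. Whether the counts on Gm26165 and Gm24233, which are less close copies, came from Snora70 and Snora26 was not tested. In M21, exons of other genes cover Snora65, Snora70, Snora26 and Snora81 in full and 93.4% of Snora5c. The part of copies and of exon overlap in these zeros cannot be told apart. Snora65 and these other genes at 0 cannot be called undetected on these counts.

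H/ACA genes with a host and 10 or more counts had more counts than that host, and most others did not. This split is by the gene's own count, and a gene at 0 cannot exceed its host. It is therefore a description and no finding about the abundant genes. Of the 51 genes, 45 lay inside a same-strand host in M21, the host of 43 was in the count files, and 11 of these 43 had a ribosomal protein gene as host. Of the 14 genes with 10 or more counts, 10 had a host, and all 10 had more counts than that host. Rpl23, which codes for a protein of the large ribosomal subunit, was at 0 counts in every sample against 253 on Snora21. Atg16l1 had 3 counts against 163 on Scarna6, Ipo7 had 4 against 156 on Snora23, and Tpt1 had 16 against 31 on Snora31. Over all 43, 15 genes had more counts than their host, 19 had fewer and 9 had the same number, 6 of these with both at 0. Of the 19 with fewer, 15 were at 0 while the host was counted. The others included Snora62 with 7 counts against 21 on Rpsa, and Snora41 with 6 against 8 on Eef1b2. Host exons that lie over another gene also lose reads as ambiguous, and the part of this in the host counts was not tested.

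Transcripts of the H/ACA machinery had few counts, as did most genes in these libraries. Of a list of 30 genes of the H/ACA particle, its assembly and RNA tail trimming, and pseudouridine synthases, 29 were matched in the files, 9 had a count and 0 were in the test, so none could be called in either direction. Of all 47729 genes, 9700 (20.3%) had a count and 1501 were in the test, so low counts are not particular to this list. Dkc1, the synthase of the particle, had 4 counts, 3 of them in anti-CD24 replicate 1. Nhp2, a core protein, had 1 count, and Gar1 and Nop10, the other core proteins, had 0. Rpusd2, a stand-alone pseudouridine synthase, had the most with 7. Terc, the telomerase RNA, which ends in an H/ACA domain but has another name, was at 0 in every sample, as was Wrap53, which carries scaRNAs to Cajal bodies.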

How the data were processed

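RNA of 6 EV samples, 3 isotype and 3 anti-CD24, was analysed. Per the methods, the authors used the FASTX toolkit for trimming and tmap for alignment. Reads were then assigned to Ensembl exons of GRCm38 by htseq-count (HTSeq 0.5.4p5, per the submitters' processing notes), by strand and in union mode. The authors deposited raw counts per gene, not normalized. The summary lines of each file were left out. Symbols, biotypes, exons and transcripts came from GENCODE M21, in which 419 of the 47729 genes are not listed.

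Genes at 1 CPM in 3 or more samples were tested with edgeR 4.0.16 (quasi-likelihood, TMM, condition only, Benjamini-Hochberg over all genes, 0.05) in R 4.3.3, after a check on simulated data. Standard errors were obtained by dividing the size of a log2 fold change by the root of its F statistic. Alternatives were DESeq2 1.42.0, other scalings, filters and denominators, the replicate number as a block, and each sample left out. Run identifiers of the deposited counts, though not the labels, put the isotype and anti-CD24 libraries of a replicate number on 1 run. The deviations of same-numbered samples from their group means correlated at -0.030, -0.024 and -0.106 over 1501 genes, so no shared deviation was seen.

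The named genes were the 20 with the highest mean CPM, the 5 such Scarna genes and the 3 with the smallest p. Others named, among them Snora73a, Snora65 and Snora35, were chosen after their values were seen. Some genes of the lists and hosts are not reported here. The genes and lists were chosen with earlier results of these data known. Copies were sought with BLAST+ 2.17.0 at 90% identity over 80% of the gene. Intervals are 95% Wilson, or exact for ratios, and cover counting error only. The remaining steps ran in Python 3.11.15 (matplotlib 3.10.9, scipy 1.17.1, pandas 2.3.3, numpy 2.4.6).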

Additional observations from a re-analysis of the deposited data

How the results depend on the processing

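No H/ACA gene passed the threshold under any of 14 alternatives. Of 213 alternative log2 fold changes of named genes, 183 kept their direction and 30 reversed. Depth limits every gene below the first 5, and the first 5 as well in single samples. Scarna6 had 2 counts in isotype replicate 1, and Snora23 had 2 in isotype replicate 2. The cause of the changes given here was not tested.

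With the replicate block, which pairs libraries of 1 run by their identifiers, 0 genes passed instead of 1, the lowest adjusted p of the 16 (edgeR) was 0.99 and their median log2 fold change was 0.54. DESeq2 called 0 genes, no filter 2, and a minimum of 10 counts over the samples 2. Leaving out 1 sample gave 0 to 48 genes, 48 without anti-CD24 replicate 1, 3 without anti-CD24 replicate 3 and 0 without isotype replicate 1 or anti-CD24 replicate 2. The family's share, anti-CD24 minus isotype, was -1.35 percentage points of all snoRNA and scaRNA counts and, in a denominator chosen after seeing the data, -1.71 points of H/ACA plus named box C/D counts. Between samples left out it ran from -0.108 to 0.378 percentage points of the non-rRNA counts. Of the 27 detected genes, 14 had 10 counts in all, and 22 to 27 remained with 1 sample left out.

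The 3 genes below 0 turned under some settings. Snora30 was at 0.0554 without TMM (-0.31 for Snora62 and -0.19 for Scarna3a, not turned), 0.31 with DESeq2 size factors (0.0935 for Snora62, 0.12 for Scarna3a), 0.32 with rRNA genes removed first (0.13 and 0.17), and 0.37 with no filter (0.0353 and 0.0776). The median of all genes was -0.29 as reported, 0.09 with DESeq2 size factors and -0.07 with rRNA genes removed. Scaled to the named box C/D counts, chosen after seeing the data, it was -1.37, the 16 genes had a median of -0.50, and values turned to -1.12 for Snora23, -0.84 for Snora21, -0.57 for Snora73b, -0.43 for Snora69, -0.85 for Snora57, -0.10 for Snora68 and -0.76 for Scarna6, while Snora30, Snora62 and Scarna3a stayed below 0.

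With 1 sample left out, log2 fold changes ran from -1.34 to 1.45 for Snora23, -0.39 to 1.49 for Snora21, -0.71 to 1.50 for Snora73b, -0.18 to 1.13 for Snora57, -0.56 to 1.75 for Scarna6, -1.51 to 0.61 for Snora30, -0.82 to 0.26 for Snora62 and -0.84 to 0.26 for Scarna3a. All of these lows except those of Snora62 and Scarna3a came without anti-CD24 replicate 1.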
